A study of Mus musculus with 10 samples.

Results

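The genes described here are the neighbours of Cldn10 on mouse chromosome 14. They are Gpc5, Gpc6, Dct, Tgds and Gpr180 at lower coordinates than Cldn10, and Dzip1, Uggt2, Rap2a, Pcca and Itgbl1 at higher coordinates. The 10 genes were chosen by name as genes within about 5 Mb of Cldn10, with earlier results of these libraries known, so their differences between genotypes are given as a description and no test is read from them. All 10 were listed in both tables, out of 16292 genes listed in ameloblasts and 16638 in stratum intermedium.

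RNA was sequenced from laser-captured cells of frozen mouse hemi-mandibles. There were 3 KO and 2 WT libraries of ameloblasts, and 3 KO and 2 WT libraries of stratum intermedium. KO libraries (KO1, KO3 and KO9) came from claudin 10 knockouts and WT libraries (WT10 and WT5) from wild-type animals. Each library is called here by the prefix of its name, and a prefix was taken to mark one animal in both layers. The knockout allele and its deleted part, the strain, the age and the captured region of the enamel organ are not stated, nor is whether prefixes are separate animals, so the spread between libraries may be partly technical. Values are normalized counts deposited by the authors, each layer normalized on its own. Differences are KO minus WT on the log2(normalized count + 1) scale, with a standard error (SE) from limma.

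Ameloblasts secrete and then mature the enamel matrix, and the stratum intermedium is the epithelial layer behind them. Claudin-10, the product of Cldn10, forms ion-selective channels between epithelial cells. In a knockout line the chromosome around the targeted gene is inherited together with the knockout allele. Neighbouring genes can carry sequence variants of the strain in which the allele was made, or lie near control elements that the allele changed. A sequence variant of the strain is present in the DNA of every cell of an animal. A changed control element is too if all cells carry the change, which is not stated here. The 10 genes were therefore compared in both layers, prefix by prefix.

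Cldn10 itself had 280, 408 and 149 normalized counts in KO1, KO3 and KO9 ameloblasts, against 600 and 752 in WT10 and WT5. Counts in stratum intermedium were 1003, 387 and 465 in the KO libraries, against 7257 and 2365 in the WT libraries. The KO libraries lay below the WT libraries in both layers, and transcript was still counted in each KO library. The log2 difference was -1.38 (SE 0.46) in ameloblasts, which left 38.4% of the WT level, and -2.87 (SE 0.56) in stratum intermedium, which left 13.7%. An exact two-sided permutation over the 10 arrangements of the libraries gave p = 0.2 in ameloblasts and p = 0.1 in stratum intermedium, the smallest p that 3 against 2 libraries allow.

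Across all genes no difference between KO and WT passed limma's threshold of an adjusted p of 0.05, either in ameloblasts (0 of 16212 genes, 0.0%) or in stratum intermedium (0 of 16543, 0.0%). Unadjusted p-values under 0.05 were found for 498 genes in ameloblasts (3.07%) and 340 in stratum intermedium (2.06%). Xist was high in KO1 and KO3 and Ddx3y was at 0 there, while KO9 and both WT prefixes had the reverse, so sex differs between prefixes and is not balanced between genotypes. The library name ends in a group number, which put KO3 with WT5, put KO9 with WT10 and left KO1 alone. WT10 had the most listed genes at 0, with 706 in ameloblasts and 854 in stratum intermedium, against 33 and 36 in WT5. KO libraries had 41 to 420 such genes in ameloblasts and 109 to 633 in stratum intermedium. The part of this in genes that were lowest in WT10 was not tested. Ameloblast markers made up 2.18% to 9.12% of the summed counts of KO ameloblast libraries and 2.66% to 4.67% of WT ones, against 0.123% to 0.787% of KO and 0.488% to 0.942% of WT stratum intermedium libraries. Markers of odontoblasts and pulp took 2.57% to 3.72% of KO and 3.24% to 4.38% of WT ameloblast libraries. In stratum intermedium they took 2.63% to 2.95% of KO and 1.75% to 4.68% of WT libraries. RNA from outside the named layer was therefore present in each capture. Col1a1 and Col1a2 had the highest values among these markers, and the tissue that they came from was not tested. All 6 stratum intermedium markers were higher in KO ameloblasts, with 0.121% to 0.178% of KO libraries, against 0.0743% to 0.0887% of WT libraries, and 0 of them passed the threshold. In the stratum intermedium captures they took 0.156% to 0.390% of KO and 0.138% to 0.358% of WT libraries. Red blood cell markers took 0.0814% to 0.144% of KO and 0.244% to 1.28% of WT ameloblast libraries, and the part of these markers in the results was not tested. In bulk captures of this kind, fewer cells of a type and less RNA per cell cannot be told apart.

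In GENCODE M21 on the GRCm38 build, Cldn10 lies at chr14:118787908-118875489 on the plus strand. The nearest of the 10 genes is Dzip1 (chr14:118875520-118925460, minus strand), whose 3′ end is 30 bases from that of Cldn10. Uggt2 (chr14:118985039-119099430, minus strand) follows 59.6 kb after Dzip1. On the other side, Gpr180 (chr14:118137158-118163261, plus strand) and Tgds (chr14:118111911-118132755, minus strand) start back to back, 4402 bases apart. Dct (chr14:118012790-118052244, minus strand) is 59.7 kb from Tgds, and Gpc6 (chr14:116925315-117976544, plus strand) is 36.2 kb from Dct. The distant genes are Gpc5 (chr14:115092215-116525179), Rap2a (chr14:120478444-120507194), Pcca (chr14:122534324-122891100) and Itgbl1 (chr14:123659971-123975618), all on the plus strand. The rule's distance ends just beyond Itgbl1, whose midpoint is 4.99 Mb from that of Cldn10. The next listed gene outside, Tpm3-rs7 at -5.52 Mb (negative for lower coordinates), had log2 differences of 0.15 in ameloblasts and 0.17 in stratum intermedium.

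Promoter sequences are shown for 4 of the genes. Dct is shown because it had the highest difference averaged over both layers, and Pcca because it was the one gene of the 10 whose KO libraries lay apart from the WT libraries in the same direction in both layers. Tgds and Gpr180 are shown because they start side by side and were both lower in KO. Each window holds 250 bases before and 50 after a RefSeq start site on GRCm38.p6, written along the gene's strand. Capitals mark CATGTG, an E-box bound by the pigment-cell factor MITF, and GGGCGG, the core of a GC box bound by Sp1-family factors, on either strand. The windows lie at chr14:118052197-118052496 for Dct, chr14:118132716-118133015 for Tgds, chr14:118136877-118137176 for Gpr180 and chr14:122534078-122534377 for Pcca.
Dct: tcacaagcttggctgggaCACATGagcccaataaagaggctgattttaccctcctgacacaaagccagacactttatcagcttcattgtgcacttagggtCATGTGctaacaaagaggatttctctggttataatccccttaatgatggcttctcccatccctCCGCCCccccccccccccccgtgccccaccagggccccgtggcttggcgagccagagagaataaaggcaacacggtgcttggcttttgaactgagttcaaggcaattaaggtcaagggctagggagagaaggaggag
Tgds: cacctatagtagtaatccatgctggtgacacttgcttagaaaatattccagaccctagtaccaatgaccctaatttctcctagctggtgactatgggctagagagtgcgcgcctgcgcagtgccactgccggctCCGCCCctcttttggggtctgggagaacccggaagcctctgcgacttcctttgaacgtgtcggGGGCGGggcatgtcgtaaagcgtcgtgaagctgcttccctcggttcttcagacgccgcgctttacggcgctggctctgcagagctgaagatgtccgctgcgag
Gpr180: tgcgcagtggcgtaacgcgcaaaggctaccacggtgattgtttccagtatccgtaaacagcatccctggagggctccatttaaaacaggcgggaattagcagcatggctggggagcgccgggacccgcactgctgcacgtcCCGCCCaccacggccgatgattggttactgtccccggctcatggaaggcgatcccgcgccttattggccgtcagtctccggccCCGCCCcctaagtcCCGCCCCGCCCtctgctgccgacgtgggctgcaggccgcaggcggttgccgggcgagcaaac
Pcca: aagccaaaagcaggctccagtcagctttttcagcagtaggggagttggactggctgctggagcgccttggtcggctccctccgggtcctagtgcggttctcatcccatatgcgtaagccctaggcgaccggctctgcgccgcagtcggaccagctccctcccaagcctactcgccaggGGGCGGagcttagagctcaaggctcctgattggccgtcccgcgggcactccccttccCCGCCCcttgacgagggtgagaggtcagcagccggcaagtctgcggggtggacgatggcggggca
The Dct window held 2 matches to CATGTG, which begin at -232 and -150 from the start site, and 14.2% of 32851 RefSeq promoter windows held at least 1. Across the 12 windows of the 9 members with an entry, no other member had a match to it. Cldn10, not counted among these, had 1 match, at -207 in its window at chr14:118787621-118787920. The string GGGCGG was matched 2 times in Tgds, 4 times in Gpr180 (a pair of them overlapping), 2 times in Pcca and 1 time in Dct, and 35.7% of all windows held it. The Dct window had 5 CpG dinucleotides, against 21 in Tgds, 29 in Gpr180 and 21 in Pcca. Another Pcca window, at chr14:122484115-122484414 and not shown, had 9 CpG dinucleotides and 0 matches to GGGCGG. A match is a string of letters and not a site known to be used.

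The glypicans Gpc5 and Gpc6 are heparan sulfate proteoglycans held at the cell surface by a lipid anchor, where they bind growth factors of the Hedgehog, Wnt and other families. Gpc6 was below WT in every KO ameloblast library. It had 251, 373 and 390 normalized counts in KO1, KO3 and KO9 ameloblasts, against 490 and 1370 in WT10 and WT5, a log2 difference of -1.30 (SE 0.48). In stratum intermedium it had 587, 959 and 506 in the KO libraries, against 855 and 2018 in the WT libraries, a log2 difference of -0.996 (SE 0.43). There KO3 lay above WT10, so the groups overlapped. In both layers WT5 was more than 1 log2 unit above WT10, so the size rests on WT5: without it the log2 difference was -0.56 in ameloblasts and -0.38 in stratum intermedium. The fibroblast markers also rose from WT10 to WT5, with summed counts of 90948 to 112299 in KO ameloblasts, against 60975 in WT10 and 138871 in WT5. This was not particular to them. From WT10 to WT5 ameloblasts, summed osteoclast markers went from 82878 to 169139 and red blood cell markers from 58988 to 288627. Endothelial markers went from 833 to 3471 and skeletal muscle markers from 2764 to 53800. Ameloblast markers fell, from 1126545 to 599345. The part of these markers in the Gpc6 result was not tested.

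The differences of Gpc5 had opposite signs in the layers. In ameloblasts it had 75.5, 19.3 and 17.6 normalized counts in KO1, KO3 and KO9, against 0 in WT10, where it is listed at 0, and 6.56 in WT5. All KO libraries lay above both WT libraries, but only the KO libraries reached 10, the level a gene needed in 3 libraries to be listed, so the gene had to differ to be seen here. The fitted log2 difference of 3.48 (SE 1.42) depends on the pseudocount and fell to 1.85 with a pseudocount of 8. In stratum intermedium Gpc5 had 145, 107 and 177 in the KO libraries, against 375 and 67.2 in the WT libraries, a log2 difference of -0.18 (SE 0.74). The WT libraries stood on both sides of the KO libraries there, and leaving out WT10 gave 1.05 while leaving out WT5 gave -1.41.

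The other 4 glypicans and 13 genes that build, modify or trim heparan sulfate showed no common direction. Of these 17 genes, 9 were higher and 8 lower in KO ameloblasts, 7 were higher and 10 lower in KO stratum intermedium, and 0 passed the threshold in either layer. The related glypicans had log2 differences of -0.08 (Gpc1), 0.57 (Gpc2), 0.44 (Gpc3) and 0.45 (Gpc4) in ameloblasts. In stratum intermedium their log2 differences were -0.27 for Gpc1, -0.51 for Gpc2, whose KO libraries lay below the WT libraries there, 0.07 for Gpc3 and -0.10 for Gpc4. The only gene of the 17 whose KO libraries lay above the WT libraries in both layers was Glce, as 0.764% of all genes did. Its product converts glucuronic to iduronic acid in heparan sulfate. The log2 differences of Glce were 0.81 in ameloblasts and 0.35 in stratum intermedium.

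Dct encodes dopachrome tautomerase, an enzyme of melanin synthesis best known from melanocytes. In ameloblasts it had 160, 265 and 55.2 normalized counts in KO1, KO3 and KO9, against 20.2 and 33.2 in WT10 and WT5. Every KO library was above both WT libraries, and the log2 difference was 2.31 (SE 0.78). With KO9 as the only KO library it was 1.06. In stratum intermedium Dct had 809, 438 and 1023 in the KO libraries, against 504 and 117 in the WT libraries, a log2 difference of 1.55 (SE 0.65). KO3 lay below WT10 there, so the groups overlapped. The size in stratum intermedium rests on the WT libraries, with 0.50 without WT5 and 2.60 without WT10. Averaged over both layers of each prefix, the log2 level of Dct was 8.50, 8.42 and 7.91 in KO1, KO3 and KO9, against 6.69 and 5.99 in WT10 and WT5. The difference of these averages was 1.93 (SE 0.38), the largest in size among the 10 genes, and the values of the genotypes did not overlap.

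Markers of other cells were set beside Dct. In ameloblasts the summed stratum intermedium markers, like Dct, were higher in every KO library, at 26759 to 44240, against 17932 and 20003 in WT10 and WT5. Of the 6, Dsc3 and Krt17 had KO libraries entirely above WT, with log2 differences of 1.62 (SE 0.30) and 1.39 (SE 0.45). Of all tested genes, 9.09% were in this state in ameloblasts. Alpl, Nectin1, Notch1 and Hes1 overlapped, with log2 differences of 0.60, 0.44, 0.38 and 0.10. In stratum intermedium these sums overlapped, at 34885 to 85737 in KO libraries, against 75127 and 33112 in WT10 and WT5. Of 7 melanocyte markers, Tyr, Tyrp1 and Mlana were listed in neither layer. The other 4 had values: Kit, Pmel, Sox10 and Mitf, each also expressed in other cell types. In ameloblasts 3 were higher and 1 lower in KO (median log2 difference 0.95), and in stratum intermedium 2 were higher and 2 lower (median -0.04). None passed the threshold. In ameloblasts the log2 differences were 1.46 (SE 0.64) for Kit, 1.21 (SE 1.57) for Sox10, 0.70 (SE 0.97) for Pmel and -0.23 (SE 0.67) for Mitf. The summed melanocyte markers were 416 to 650 in KO ameloblasts, against 208 and 375 in WT ameloblasts. In stratum intermedium the sums were 511 to 878 in KO libraries, against 400 and 922 in WT libraries. None of the 4 had KO libraries entirely above or below the WT libraries in either layer. Pmel, a structural protein of the melanosome, had 18.2, 21.9 and 56.7 normalized counts in KO1, KO3 and KO9 ameloblasts, against 28.3 and 10.1 in WT10 and WT5. The part of these cells in the Dct difference was not tested.

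Tgds encodes a TDP-glucose 4,6-dehydratase, a nucleotide-sugar enzyme in which mutations cause Catel-Manzke syndrome in humans, and Gpr180 encodes a membrane protein classed by name with the G protein-coupled receptors. Both had lower means in KO in both layers. Gpr180 had 702, 672 and 970 normalized counts in KO1, KO3 and KO9 ameloblasts, against 1518 and 1253 in WT10 and WT5. Its stratum intermedium values were 752, 765 and 1014 in the KO libraries, against 961 and 1151 in the WT libraries. The KO libraries were below the WT libraries in ameloblasts, with a log2 difference of -0.84 (SE 0.27). They overlapped in stratum intermedium, where KO9 exceeded WT10 and the log2 difference was -0.33 (SE 0.25).

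Tgds showed the opposite arrangement. It had 347, 810 and 834 normalized counts in KO1, KO3 and KO9 ameloblasts, against 801 and 856 in WT10 and WT5. Only KO1 was low there, and the log2 difference of -0.42 (SE 0.43) was -0.01 without KO1. In stratum intermedium Tgds had 415, 682 and 532 in the KO libraries, against 724 and 1193 in the WT libraries. All 3 KO libraries were below both WT libraries, with a log2 difference of -0.80 (SE 0.34). KO1 had the lowest Tgds value of the 5 libraries in each layer.

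Pcca encodes the alpha subunit of propionyl-CoA carboxylase, the biotin-dependent mitochondrial enzyme that feeds propionate from amino acids and odd-chain fatty acids into the citric acid cycle. It was the one gene of the 10 whose KO libraries were above the WT libraries in both layers. Pcca had 479, 498 and 476 normalized counts in KO1, KO3 and KO9 ameloblasts, against 230 and 393 in WT10 and WT5. Stratum intermedium had 564, 553 and 592 in the KO libraries, against 384 and 486 in the WT libraries. The log2 difference was 0.69 (SE 0.34) in ameloblasts and 0.40 (SE 0.27) in stratum intermedium. The KO libraries spanned 0.06 log2 units in ameloblasts and 0.10 in stratum intermedium, while the WT libraries were 0.77 and 0.34 apart. Without WT10 the log2 differences were 0.30 in ameloblasts and 0.23 in stratum intermedium.

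The beta subunit of the same enzyme, Pccb, went the other way in value, with log2 differences of -0.25 in ameloblasts and -0.27 in stratum intermedium. Of 5 genes of the propionate pathway other than Pcca, 1 was higher and 4 lower in KO ameloblasts, 2 were higher and 3 lower in KO stratum intermedium, and 0 passed the threshold. Ggact overlaps Pcca on the opposite strand, and nothing states whether the authors counted reads by strand. Its log2 differences were -0.72 in ameloblasts and 0.22 in stratum intermedium, so it had the sign of Pcca in stratum intermedium only.

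Uggt2 encodes a UDP-glucose:glycoprotein glucosyltransferase homologue of Uggt1, the sensor that marks misfolded glycoproteins in the endoplasmic reticulum for another folding round. It had 322, 346 and 460 normalized counts in KO1, KO3 and KO9 stratum intermedium, against 81.2 and 268 in WT10 and WT5, with all KO libraries above the WT libraries. In ameloblasts it had 152, 238 and 273 in the KO libraries, against 80.7 and 338 in the WT libraries. WT10 was the lowest library in both layers, and in ameloblasts WT5 was above every KO library. The log2 difference was 1.33 (SE 0.54) in stratum intermedium and 0.37 (SE 0.65) in ameloblasts. Without WT10 it was 0.47 in stratum intermedium and -0.65 in ameloblasts, so the direction in ameloblasts rests on that library.

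Uggt1 had log2 differences of 0.15 in ameloblasts and 0.28 in stratum intermedium. Of 7 genes of glycoprotein folding in the endoplasmic reticulum other than Uggt2, 7 were higher in KO ameloblasts, and 5 were higher and 2 lower in KO stratum intermedium. None passed the threshold, and 8586 of the 16212 genes tested in ameloblasts were also higher in KO.

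Rap2a encodes a small GTPase of the Ras family that acts through the kinases TNIK, MINK1 and MAP4K4. In ameloblasts it had 254, 317 and 236 normalized counts in KO1, KO3 and KO9, against 514 and 473 in WT10 and WT5. The KO libraries were below the WT libraries, with a log2 difference of -0.88 (SE 0.31) that lay between -1.01 and -0.79 when any 1 library was left out. In stratum intermedium Rap2a had 500, 478 and 383 in the KO libraries, against 492 and 437 in the WT libraries. The groups overlapped there, with a log2 difference of -0.04 (SE 0.29). The related Rap2b had log2 differences of 0.08 in ameloblasts and 0.01 in stratum intermedium, and Rap2c had 0.74 and -0.01 in the same layers. Of 6 Rap2 relatives and effectors, 3 were higher and 3 lower in KO ameloblasts, 5 were higher and 1 lower in KO stratum intermedium, and 0 passed the threshold.

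Dzip1, the closest of the 10 to Cldn10, encodes a protein of the ciliary basal body that takes part in Hedgehog signalling through the Gli transcription factors. It had 350, 387 and 230 normalized counts in KO1, KO3 and KO9 ameloblasts, against 189 and 264 in WT10 and WT5. Stratum intermedium had 937, 301 and 377 in the KO libraries, against 415 and 333 in the WT libraries. The groups overlapped in both layers, and KO1 stood above the other libraries of stratum intermedium. The log2 difference was 0.49 (SE 0.39) in ameloblasts and 0.35 (SE 0.50) in stratum intermedium, where it was -0.14 without KO1. The antisense gene Gm49179 overlaps Dzip1, and Gm16835 overlaps Uggt2 on the opposite strand. Both had values in stratum intermedium, with log2 differences of 1.69 (SE 1.88) for Gm49179 and -0.27 (SE 1.24) for Gm16835. Of 7 genes of ciliary Gli handling other than Dzip1, 6 were higher and 1 lower in KO ameloblasts, 4 were higher and 3 lower in KO stratum intermedium, and 0 passed the threshold.

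Itgbl1 encodes a secreted protein of EGF-like repeats that resembles part of an integrin beta chain. In stratum intermedium it had 89.6, 131 and 166 normalized counts in KO1, KO3 and KO9, against 9.88 and 72.8 in WT10 and WT5. In ameloblasts it had 96.4, 30.9 and 29.2 in the KO libraries, against 13.2 and 52.8 in the WT libraries. The KO libraries were above the WT libraries in stratum intermedium only, with a log2 difference of 2.15 (SE 0.90), against 0.72 (SE 0.94) in ameloblasts. As with Uggt2, WT10 was the lowest library in both layers. Without WT10 the log2 difference of Itgbl1 was 0.77 in stratum intermedium and -0.24 in ameloblasts. The summed fibroblast markers were also lowest in WT10 in both layers. In stratum intermedium they were 143720 to 169955 in KO libraries, against 79334 in WT10 and 171137 in WT5. Summed skeletal muscle and melanocyte markers were lowest in WT10 in both layers too, at 16632 and 400 in stratum intermedium. The part of these markers was not tested.

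**Figure D1:**
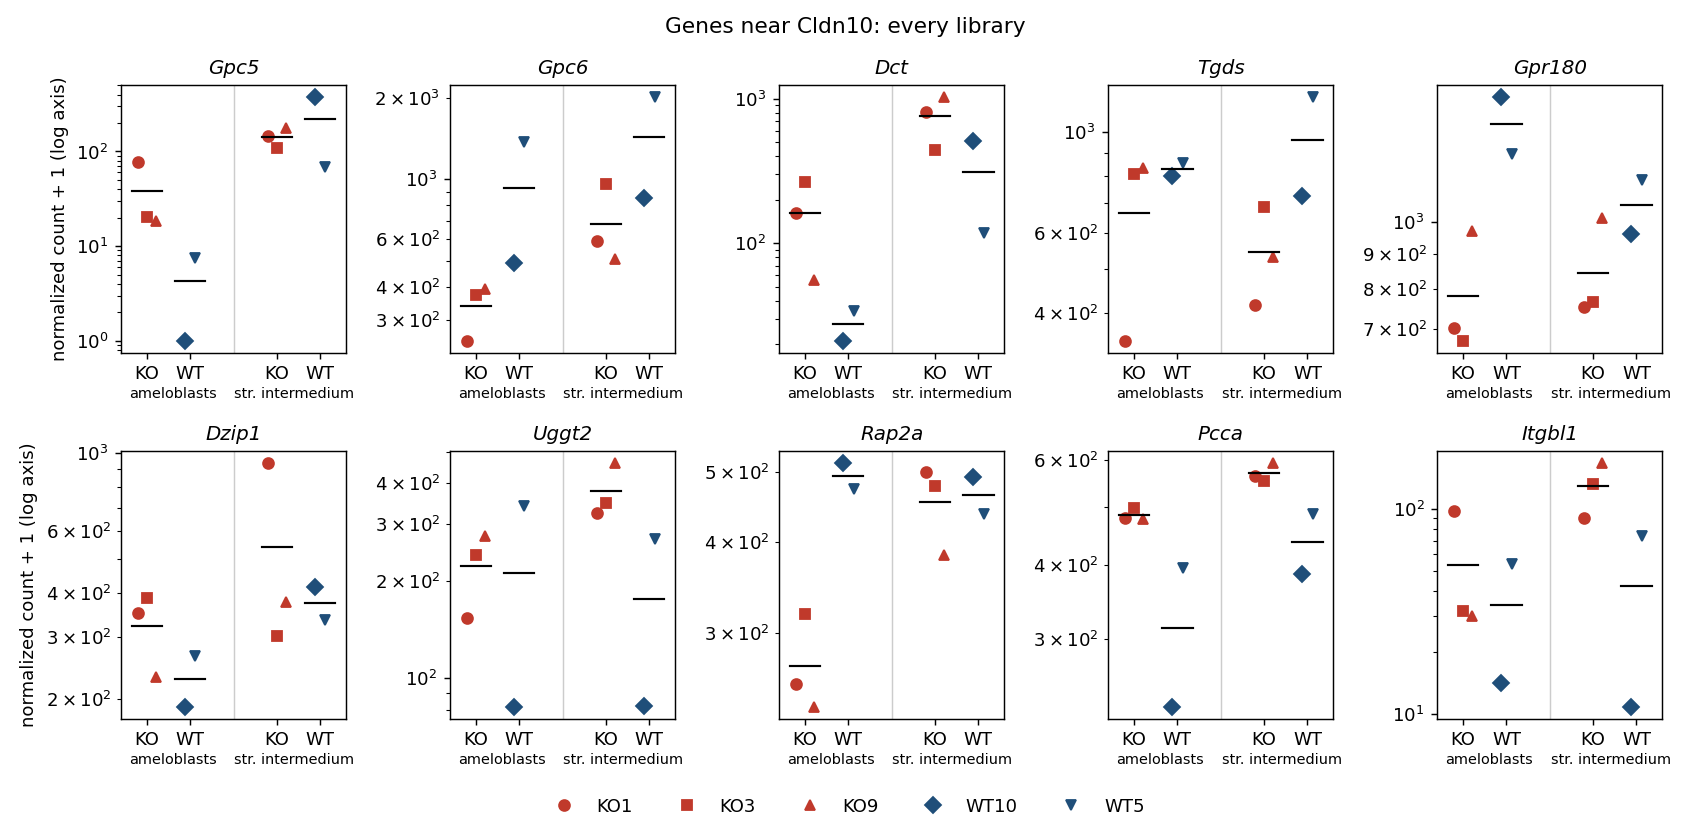
Normalized count + 1 (log axis) of each of the 10 genes in every library, with KO (red) left of WT (blue) in ameloblasts and in stratum intermedium. Symbols mark the prefix and black lines the group means plus 1. Pcca has its 3 KO libraries between 476 and 498 in ameloblasts and between 553 and 592 in stratum intermedium, above both WT libraries of each layer, while WT10 is the low point of Uggt2 and Itgbl1.

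Levels were also compared between genes, as mean normalized counts per kilobase of annotated exon within each genotype. Gpr180 was the most abundant of the 10, with 417 per kb in KO and 739 in WT ameloblasts, and 450 in KO and 563 in WT stratum intermedium. Tgds came next in each genotype and layer, with 272 in KO and 340 in WT ameloblasts, and 223 in KO and 393 in WT stratum intermedium. Below them the order depended on genotype. In KO ameloblasts Pcca (93.0 per kb) stood above Rap2a (64.2) and Gpc6 (52.6), while in WT ameloblasts Gpc6 (145) stood above Rap2a (118) and Pcca (59.8). Dct was at 27.1 per kb in KO ameloblasts, near Dzip1 at 30.6, and at 4.53 in WT ameloblasts, below Dzip1 (21.5), Uggt2 (16.4) and Itgbl1 (7.79). In KO stratum intermedium Dct (128), Pcca (109), Rap2a (108) and Gpc6 (107) lay closer together than the spread of Dct, which ran from 74.2 to 173 between libraries. In WT stratum intermedium the order was Gpc6 (224), Rap2a (111), Pcca (83.5) and Dct (52.7). Gpc5 was the lowest in ameloblasts by mean, with 16.96, 4.33 and 3.95 per kb in KO1, KO3 and KO9, against 0 and 1.47 in WT10 and WT5. The tables were normalized separately, so these levels are not compared between layers.

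Set side by side, 9 of the 10 genes had a difference of the same sign in both layers, with Gpc5 the exception. Among all 15567 genes tested in both layers, 51.0% had the same sign. Of the 18 other listed genes within 5 Mb that were tested in both layers, 7 had the same sign. Dct, Dzip1, Uggt2, Pcca and Itgbl1 were higher in KO in both layers, and Gpc6, Tgds, Gpr180 and Rap2a were lower. The count was 7 without WT10, 8 without KO1, 8 without KO9, 10 without KO3 and 9 without WT5. Not every shared sign comes with separate groups, since Rap2a differed by -0.04 in stratum intermedium. The 10 genes were chosen with their differences known, and both layers hold the same prefixes. Nothing is therefore read from the 9 of 10.

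**Figure D2:**
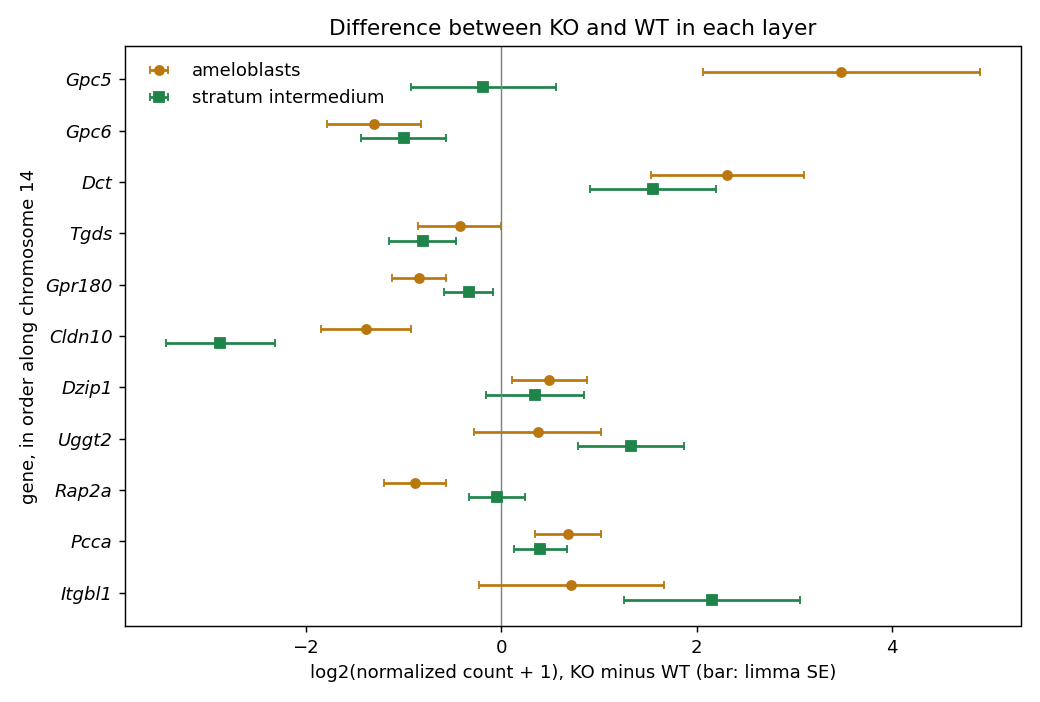
Log2 difference, KO minus WT, of the 10 genes and Cldn10 in ameloblasts (circles) and stratum intermedium (squares), in order along chromosome 14, with the limma standard error as a bar. Dct lies at 2.31 and 1.55 and Gpc6 at -1.30 and -0.996, while Gpc5 lies at 3.48 in ameloblasts and -0.18 in stratum intermedium.

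Separation of the libraries was shared by both layers for 1 gene. It was present for 6 of the 10 genes in ameloblasts, against 18.4% of all tested genes, and for 4 in stratum intermedium, against 15.2%. In ameloblasts 3 of the 10 genes (Gpc5, Dct and Pcca) had every KO library above every WT library, a state that 9.09% of all tested genes had, and 3 (Gpc6, Gpr180 and Rap2a) had every KO library below, as 9.26% of all genes did. In stratum intermedium 3 (Uggt2, Pcca and Itgbl1) were above, against 7.76% of all genes, and 1 (Tgds) was below, against 7.44%. Pcca alone of the 10 was in the same state in both layers, as were 0.764% of all genes for higher values. Gpc5 in ameloblasts was listed through its KO libraries alone, so its separation there was fixed by the listing. Since the genes were chosen with these values known, nothing is read from the shares. Cldn10 had its KO libraries below in both layers, as did 0.707% of all genes.

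For the 10 genes, the means over both layers of each prefix separated the genotypes more often than either layer did. In these means Gpc5, Dct, Pcca and Itgbl1 were higher in every KO prefix than in either WT prefix, a state of 7.0% of all genes. Gpc6, Tgds, Gpr180 and Rap2a were lower in every KO prefix, as were 7.18% of all genes. Counting both directions, these are 8 of the 10 genes, against 14.2% of all genes. Over all genes that share was below those of the single layers, 18.4% in ameloblasts and 15.2% in stratum intermedium. Since the 10 genes were chosen with these values known, nothing is read from the 8. Gpc5 is among the 8 through its ameloblast values, which it needed in KO to be listed, so its place there carries no information. Dzip1 and Uggt2 overlapped. The differences ran from -1.15 (SE 0.42) for Gpc6 to 1.93 (SE 0.38) for Dct, and 0 of 15567 genes (0.0%) passed the threshold in this fit, with 227 genes (1.46%) at an unadjusted p under 0.05. For Gpr180 the averaged log2 level was 9.51, 9.49 and 9.95 in KO1, KO3 and KO9, against 10.24 and 10.23 in WT10 and WT5. For Pcca it was 9.03, 9.04 and 9.06 in the KO prefixes, against 8.22 and 8.78 in the WT prefixes.

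The size of the difference was also compared between layers, as the ameloblast value minus the stratum intermedium value of each prefix. None of the 15567 genes (0.0%) passed the threshold, and 747 (4.8%) had an unadjusted p under 0.05. The difference in ameloblasts exceeded that in stratum intermedium by 3.66 (SE 7.59) for Gpc5 and by 0.76 (SE 2.28) for Dct. In this fit the spread was modelled on each gene's mean ameloblast minus stratum intermedium value, not on its expression level. The SEs depend on that choice. The excess was -0.84 (SE 0.29) for Rap2a, which was lower in KO ameloblasts, and -0.95 (SE 0.32) for Uggt2. For Pcca it was 0.29 (SE 0.29) and for Gpc6 -0.31 (SE 0.45). No difference between layers was therefore shown for any of the 10 genes, which is not evidence that the layers were alike.

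Within the library groups each comparison is 1 KO library against 1 WT library, with no replicate. Dct was higher in KO in all 4 of these comparisons, by 2.96 (KO3 minus WT5) and 1.40 (KO9 minus WT10) in ameloblasts and by 1.90 and 1.02 in stratum intermedium. Pcca was higher in all 4, by 0.34 and 1.05 in ameloblasts and by 0.19 and 0.62 in stratum intermedium. Gpc6 was lower in all 4, at -1.87 and -0.33 in ameloblasts and -1.07 and -0.75 in stratum intermedium. Of all genes, 9.42% had 1 sign in all 4 comparisons, 5.18% higher and 4.24% lower, and Cldn10 was among the lower ones. The other 7 genes had at least 1 comparison of the opposite sign. Tgds ranged from -0.81 to 0.06, Gpr180 from -0.90 to 0.08, Rap2a from -1.12 to 0.13 and Dzip1 from -0.14 to 0.55. KO9 and WT10 were both high in Ddx3y and low in Xist, and in that pair Dct and Pcca were higher and Gpc6 lower in KO in both layers.

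**Figure D3:**
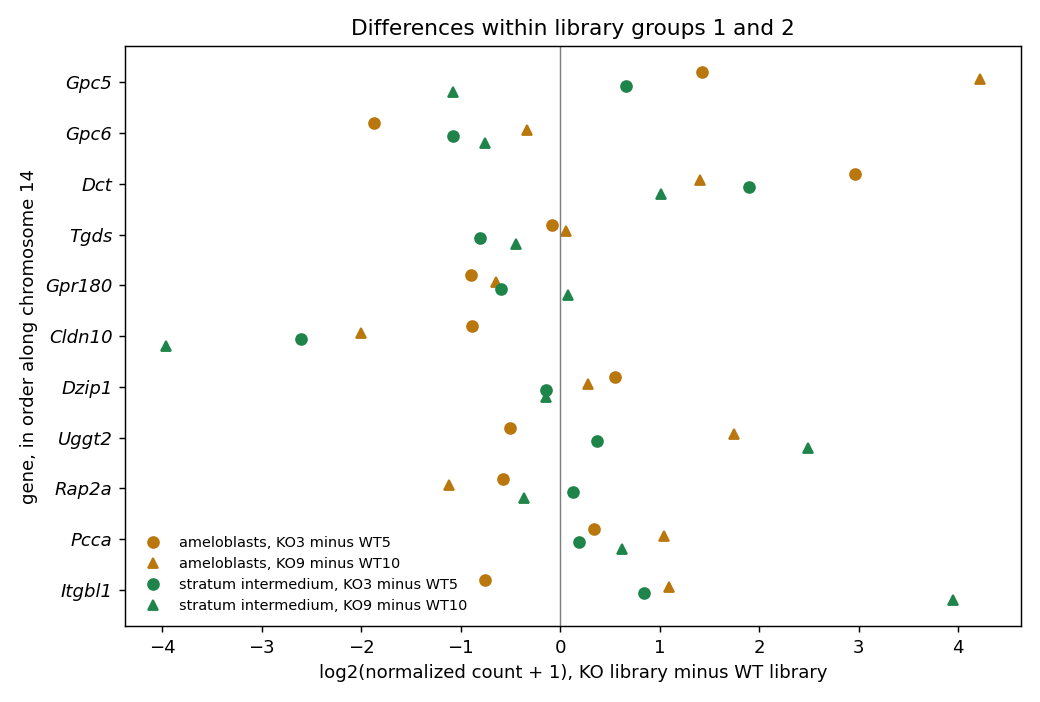
Log2 difference between 1 KO and 1 WT library of the same library group, for the 10 genes and Cldn10 in order along chromosome 14. Orange symbols are ameloblasts, green symbols stratum intermedium, circles KO3 minus WT5 and triangles KO9 minus WT10. The 4 symbols lie on one side of 0 for Gpc6, Dct, Pcca and Cldn10.

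The WT libraries differed from each other at several of these genes. On the log2 scale WT10 minus WT5 was -2.05 in ameloblasts and -1.71 in stratum intermedium for Uggt2. It was -1.93 and -2.76 for Itgbl1, and -1.48 and -1.24 for Gpc6. A gap between the WT libraries of at least 1 log2 unit, in the same direction in both layers, was thus found for 3 of the 10 genes and for 10.2% of all genes. With KO9 as the only KO prefix, 18 of the 20 differences of the 10 genes kept their sign. The exceptions were Tgds in ameloblasts, at 0.01, and Gpc5 in stratum intermedium, at 0.15. Sizes moved both ways. Dct went from 2.31 to 1.06, Dzip1 from 0.49 to 0.04 and Rap2a from -0.88 to -1.06 in ameloblasts. Gpr180 went from -0.33 to -0.05 in stratum intermedium. KO9 alone of the KO prefixes had the Xist and Ddx3y pattern of the WT prefixes, and the part of sex was not tested.

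Along the chromosome, genes higher and genes lower in KO lay on both sides of Cldn10, and direction was not tested against distance. Of the 5 genes at lower coordinates, 2 were higher and 3 lower in KO ameloblasts, and 1 was higher and 4 lower in KO stratum intermedium. Of the 5 at higher coordinates, 4 were higher and 1 lower in each layer. Neighbours could point in opposite ways, as Dct (higher) and Tgds (lower) did at a distance of 59.7 kb, and as Dct and Gpc6 did at 36.2 kb. The median difference of the 10 genes was 0.43 in ameloblasts and 0.15 in stratum intermedium, and the median of its size without sign was 0.78 and 0.60. Over all tested genes the median was 0.04 in ameloblasts and 0.02 in stratum intermedium, with a median size of 0.32 and 0.28. Since the 10 were picked with their differences known, nothing is read from the larger size.

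The other listed genes within 5 Mb, Cldn10 and the 10 genes left out, had a median difference of -0.01 over 19 genes in ameloblasts and -0.11 over 21 genes in stratum intermedium, with a median size of 0.28 and 0.22. None of them had KO and WT libraries apart in the same direction in both layers. Of all genes, 0.764% were in this state for higher and 0.707% for lower values, so nothing is read from this. In ameloblasts 3 of these other genes had every KO library above and 1 below the WT libraries, against 9.09% and 9.26% of all genes. In stratum intermedium 0 were above and 1 below, against 7.76% and 7.44%. Abcc4, an efflux transporter and the nearest listed gene on the lower side, had log2 differences of 0.01 in ameloblasts and -0.57 in stratum intermedium. Dnajc3, an endoplasmic reticulum co-chaperone on the other side beyond Dzip1, had 0.33 and -0.14 in the same layers. Of 36 annotated protein-coding genes in the window, 26 were listed in either table.

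**Figure D4:**
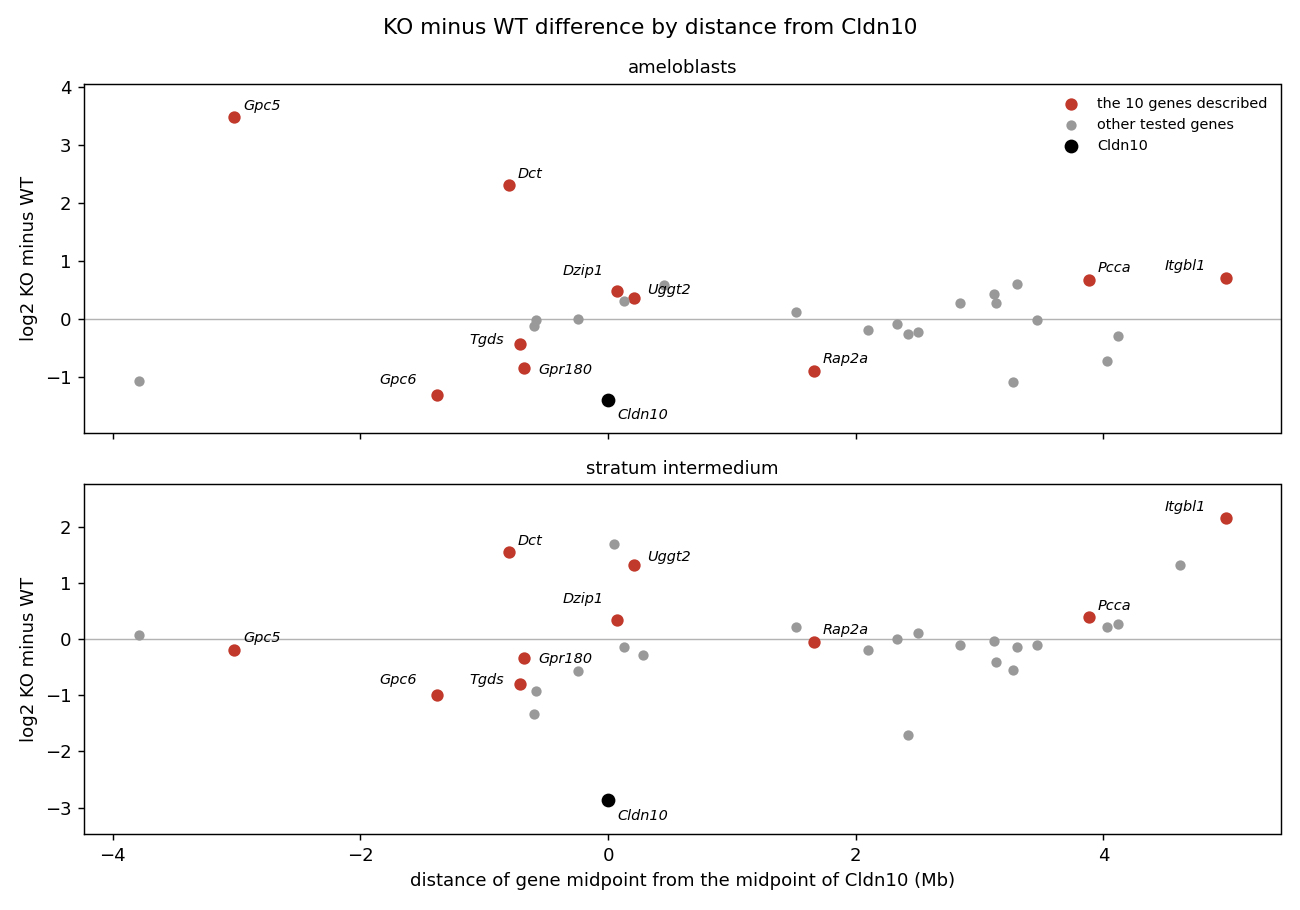
Log2 difference, KO minus WT, of every tested gene within 5 Mb of Cldn10, against the distance of its midpoint from that of Cldn10 in Mb, in ameloblasts (top) and stratum intermedium (bottom). The 10 genes are red, Cldn10 black and other genes grey. Red points lie on both sides of 0 on the low-coordinate side, and the grey points have medians of -0.01 in ameloblasts and -0.11 in stratum intermedium.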

How the data were processed

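The signal values are normalized counts per gene, deposited by the authors as 1 table for each layer. Per the submitters' processing notes, the build was GRCm38, and DESeq, featureCounts, STAR 2.5.2b, FastQC and Picard 2.8.1 are named without role or settings. The deposited tables' names give Ensembl release 101, normalization by the authors with DESeq2, and removal of outliers. Genes listed had at least 10 in at least 3 libraries. The libraries summed to 21006977 to 26856177 normalized counts. Whole reads could not be recovered (99.5% or more of low values were distinct), so depth is unknown and no counting intervals are given. Per the labels' protocols, libraries were made with a TruSeq Stranded mRNA kit.

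Columns were matched to samples by library name, with 0 columns unused. Within each table, and on the mean and the difference of both layers per prefix, two-sided tests with a mean trend were run in limma 3.58.1 (R 4.3.3) on log2(normalized count + 1). Genes averaging under 10 were left out, and p-values were adjusted over all the others (Benjamini-Hochberg). The fits were run on simulated data, where only the mean size of planted differences had to be recovered. The share of true differences that so few libraries can detect is not given. Deviations from the group means correlated across genes between layers at r = 0.201 to 0.311 for the same prefix and at most 0.19 for different ones. GENCODE M21 gave positions, and RefSeq gave 32851 promoter windows, with 9 of the 10 genes matched. Both strands were searched for CATGTG (2 matches in Dct) and for GGGCGG, and also for TATAAA (held by 13.6% of all windows), for CCAAT (37.4%) and for TTAATTA (3.07%), which are not marked. Alternatives were 2 other pseudocounts (0.5 and 8), a filter at 50 or none, 2 other scalings, robust moderation, blocks for replicate number or library group, windows of 2 and 10 Mb, KO9 alone, and each library or prefix left out. A fit without the mean trend was added after seeing the data. The members, gene lists, rule for named genes and alternatives were chosen with earlier results of these data known. Named were Cldn10, all 10 members, the nearest listed gene on either side, other window genes apart in both layers (none), set partners of the members, and list genes apart in both layers. Marker genes, Gpc2, Tpm3-rs7, overlapping genes, sex genes and the genes of the closing section were named for their role or after their values were seen. Figures were drawn with matplotlib 3.10.9.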

Additional observations from a re-analysis of the deposited data

How the results depend on the processing

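The count of 0 genes past the adjusted threshold held in each fit under all processing alternatives and an adjusted p of 0.1. With each library or prefix left out it ran from 0 to 1 in ameloblasts (1, Tcap, without WT5), stayed at 0 in stratum intermedium and for the difference of layers, and ran from 0 to 2 for the mean of both layers (2, Xist and Ddx3y, without KO9). The median difference of the 10 genes in ameloblasts was 0.43. It was -0.025 over the 8 genes with a mean of at least 50 and 0.087 with KO9 as the only KO prefix, and it ran from -0.36 (without WT10) to 0.90 (without WT5) with 1 library left out. In stratum intermedium it was 0.15. It was -0.13 with library group as a block and ran from -0.13 (without KO1) to 0.35 (without WT10). The median over all genes within 5 Mb but Cldn10 ran from -0.12 (without WT10) to 0.21 (without WT5) around 0.00 in ameloblasts. In stratum intermedium it was -0.10, was -0.20 within 2 Mb and -0.028 with KO9 alone, and ran from -0.17 (without WT10) to 0.0057 (without WT5). The cause of these shifts was not tested beyond the libraries named. Of 298 alternative values of the 20 member differences, 11 had the other sign, in 6 of the differences: Tgds, Uggt2 and Itgbl1 in ameloblasts, and Gpc5, Dzip1 and Rap2a in stratum intermedium. Pseudocounts, filters and scalings changed 0 signs. Cldn10 stayed lower throughout, between -2.17 and -0.99 in ameloblasts and between -3.68 and -2.06 in stratum intermedium. Where 1 WT library was left out, the lone one was assumed to vary like the KO libraries.

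The replicate numbers of the titles do not pair the libraries. Same-numbered KO and WT libraries deviated from their group means with correlations of 0.0862 and -0.116 in ameloblasts and of -0.186 and -0.133 in stratum intermedium. With the replicate block 0 genes passed in either layer, and 354 in ameloblasts and 185 in stratum intermedium had an unadjusted p under 0.05, against 498 and 340 without it. The block was not run on the values of both layers, since the same number marks different prefixes there.

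Without read counts the depth behind each value is unknown. With 2 WT libraries a layer, 1 WT library moves most differences of the 10 genes, and genes below the listing level were not seen.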
